A study of Mus musculus with 4 samples.

Results

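Interferon response genes are transcribed in cells that have sensed interferon, and 39 of them were followed across 4 single-cell libraries of mouse muscle stem cells. The genes were taken from a list of symbols, each of which matched 1 of the 31055 features counted. Of the 39 genes, 37 reached 5 CPM in at least 1 library and are called measured below, as against 10316 of all features. CPM is the number of unique molecular identifiers (UMIs, tags that mark single captured RNA molecules) of a gene, scaled by the UMI total of the library in the usual way. The remaining pair was Oas1a, which had no UMI in any library, and Usp18, which reached 3.32 CPM at most. For sums over members, 28 were counted as inducible; the 6 antigen presentation genes, Irf1, Irf8, Trim25, Cxcl10 and Cd274, which also answer to other signals, were kept out of such sums.

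Muscle stem cells carry the factor Pax7, lie beside muscle fibres and rebuild them after injury. GFP-positive cells were sorted from mice of the strain Tg:Pax7-nGFP, aged 2 to 4 months, a reporter strain in which Pax7 regulatory DNA drives a nuclear GFP, so that all groups carry the transgene and hold only cells that passed the GFP gate. The 4 groups were activated EOM and activated TA cells, kept in culture for 4 days on Matrigel at 3% oxygen, and quiescent EOM and quiescent TA cells, which went from the sorter to the 10x Genomics droplet assay. EOM stands for the extraocular muscles, which turn the eye, and TA for the tibialis anterior of the lower leg. Each group was 1 library, and the number of animals behind it is not given in the sources used here. Differences between libraries therefore have no replicate check, no test between groups was made, and every interval given is an exact 95% interval for counting error only.

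After filtering, 5566 activated EOM, 4284 activated TA, 3592 quiescent EOM and 2899 quiescent TA cells remained, with medians of 21284, 23364.5, 4663.5 and 5030 UMIs per cell in that order. Muscle stem cell markers summed to 1137 and 1629 CPM in the activated and 3765 and 5344 CPM in the quiescent libraries, EOM before TA. Markers of differentiating muscle summed to 3556 and 6207 CPM in activated EOM and TA, against 6.01 and 12.2 CPM in quiescent EOM and TA. Fibroblast markers summed to 575 CPM in quiescent EOM and 679.8 CPM in quiescent TA. The 6 leukocyte markers summed to 3.597 and 10.3 CPM in activated EOM and TA, against 0.916 and 0.524 CPM in quiescent EOM and TA; Ptprc, Cd52 and Tyrobp had no UMI in any library, and Laptm5 had 345 UMIs in activated and 0 in quiescent EOM cells, and 987 and 0 in TA cells. Of 7 macrophage markers, 5 were at 0 in quiescent EOM and 2 in quiescent TA, with sums of 6.12 and 12.2 CPM. Barcodes with over 10% of UMIs from mitochondrial genes were 11.7% in quiescent EOM and 40.5% in quiescent TA before they were removed. Kept cells of different libraries shared 3 to 6 barcodes per pair of libraries.

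Interferons are secreted proteins that warn cells of viruses and other microbes. Type I interferons act through a receptor that leads to a complex with STAT2 and IRF9, which binds a DNA element called the ISRE. Interferon gamma acts through the GAS element and through IRF1, which it induces. The products include proteins that block viral RNA, GTPases that attack membranes around intracellular microbes, and the machinery that presents peptides on class I MHC molecules. Several of these genes also answer to other signals: Cxcl10 and Irf1 can be induced through NF-kappaB, and Irf1 also by stress. The sensors and effectors are also kept at a basal level in many resting stem cells.

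The promoters show which of these elements lie next to the members. Of the 39 members, 35 had an entry in the RefSeq promoter table (build GRCm38.p6, 250 bases before to 50 after the annotated start). The ISRE core was searched as GAAA and GAAA with any 2 bases between, the GAS element as TTCNNNGAA and an NF-kappaB motif as GGGA and TTCC with any 2 bases between, all on both strands and with overlaps allowed. The ISRE core was present in the windows of 18 of the 35 members (51.4%), against 3.99% of 27025 genes in the table. GAS was present in 11 members (31.4%), against 9.55% of genes, and the NF-kappaB motif in 6 members (17.1%), against 1.63% of genes. Such a match describes letters in a window, and its absence says nothing about a factor.

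The 6 promoters printed here belong to the members that reached 20 CPM and had the highest ratios of quiescent EOM over quiescent TA, so that the letters can be read beside the values that follow. Each runs 5′ to 3′ on the strand of the gene, and capitals mark the matched motifs. The Cxcl10 promoter lies at chr5:92348840-92349139 on the minus strand, with an ISRE core starting 213 and an NF-kappaB motif starting 159 bases before the start. The Irf1 promoter lies at chr11:53769764-53770063 on the plus strand, with a GAS element 90 bases before the start and no ISRE core. The Ifit1 promoter at chr19:34640639-34640938 and the Ifit3 promoter at chr19:34583279-34583578, both on the plus strand, each hold a pair of ISRE cores read on the opposite strand, 104 and 85 bases before the start in Ifit1 and 156 and 122 bases in Ifit3. The Igtp promoter at chr11:58199306-58199605, plus strand, has a GAS element 45 and an ISRE core 34 bases before the start. The Cd274 promoter at chr19:29367188-29367487, plus strand, holds none of the 3 motifs in this window.
Cxcl10: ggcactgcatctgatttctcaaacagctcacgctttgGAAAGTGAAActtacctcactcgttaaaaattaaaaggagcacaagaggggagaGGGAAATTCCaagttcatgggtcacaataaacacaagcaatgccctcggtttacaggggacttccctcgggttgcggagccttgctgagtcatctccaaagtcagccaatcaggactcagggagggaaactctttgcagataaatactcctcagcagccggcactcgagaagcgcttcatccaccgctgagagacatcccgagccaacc
Irf1: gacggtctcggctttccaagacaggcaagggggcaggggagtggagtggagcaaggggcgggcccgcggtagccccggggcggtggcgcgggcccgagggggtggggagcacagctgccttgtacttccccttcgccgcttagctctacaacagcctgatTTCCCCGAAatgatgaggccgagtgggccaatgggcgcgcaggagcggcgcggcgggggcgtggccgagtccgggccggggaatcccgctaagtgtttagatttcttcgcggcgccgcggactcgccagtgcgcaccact
Ifit1: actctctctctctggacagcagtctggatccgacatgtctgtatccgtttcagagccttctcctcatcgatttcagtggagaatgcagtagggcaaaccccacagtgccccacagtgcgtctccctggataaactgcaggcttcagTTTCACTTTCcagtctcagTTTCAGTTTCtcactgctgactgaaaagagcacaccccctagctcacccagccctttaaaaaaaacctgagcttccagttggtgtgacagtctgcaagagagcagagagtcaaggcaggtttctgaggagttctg
Cd274: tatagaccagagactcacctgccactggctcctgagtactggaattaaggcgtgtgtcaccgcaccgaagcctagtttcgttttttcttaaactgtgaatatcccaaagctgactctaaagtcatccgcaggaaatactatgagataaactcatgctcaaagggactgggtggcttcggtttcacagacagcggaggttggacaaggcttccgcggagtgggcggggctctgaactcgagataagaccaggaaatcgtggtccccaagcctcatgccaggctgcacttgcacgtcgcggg
Ifit3: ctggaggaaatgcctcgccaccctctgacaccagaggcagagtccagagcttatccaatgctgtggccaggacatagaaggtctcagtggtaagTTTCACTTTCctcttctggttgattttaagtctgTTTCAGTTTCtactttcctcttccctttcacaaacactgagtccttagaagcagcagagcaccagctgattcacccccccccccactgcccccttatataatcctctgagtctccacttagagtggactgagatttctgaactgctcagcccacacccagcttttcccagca
Igtp: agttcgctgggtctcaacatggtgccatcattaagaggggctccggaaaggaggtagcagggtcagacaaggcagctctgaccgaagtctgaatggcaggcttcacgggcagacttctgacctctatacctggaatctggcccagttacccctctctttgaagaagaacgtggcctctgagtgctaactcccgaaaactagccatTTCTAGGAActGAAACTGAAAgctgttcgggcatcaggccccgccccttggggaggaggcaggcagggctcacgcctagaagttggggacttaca

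All 37 measured members were found in quiescent cells, and most were close to absent after culture. Among antigen presentation genes, B2m, the light chain of class I MHC, had 75.1 CPM in activated and 435 CPM in quiescent EOM cells, and 64.3 and 286 CPM in TA cells. The class I heavy chain H2-K1 stood at 23.8 CPM in activated and 465 CPM in quiescent EOM cells, and at 25.7 and 387 CPM in TA cells. The heavy chain H2-D1 was at 26.96 CPM in activated and 553 CPM in quiescent EOM cells, and at 36.2 and 459 CPM in TA cells. These 3 genes were the class I chains that activated cells still held in clear amounts, and their quiescent levels were above the activated ones in both muscles. Of the last 500 transcript bases, read as 50-base words, 11.8% of H2-K1 and 18.8% of H2-D1 words also occur in other genes, so their counts are uncertain to that extent. Tap1, a subunit of the transporter that loads peptides, had 2.15 CPM in activated and 74.6 CPM in quiescent EOM cells, and 3.16 and 53.2 CPM in TA cells. Psmb8, an immunoproteasome subunit, stood at 4.11 CPM in activated and 29.8 CPM in quiescent EOM cells, and at 6.93 and 23.04 CPM in TA cells. Psmb9 and Tap1 overlap on opposite strands, and whether counting used the strand is not given in the sources used here.

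The transcription factors were nearly lost in culture. Irf1 was at 4.03 CPM in activated and 239.5 CPM in quiescent EOM cells, and at 2.33 and 57.2 CPM in TA cells. Irf8, best known as a factor of blood cells, had 0.0326 CPM in activated and 94.8 CPM in quiescent EOM cells, and 0.176 and 82.6 CPM in TA cells. Both were low after culture in both muscles, and in quiescent cells the muscles were far apart for Irf1 and close for Irf8. Irf9, the DNA-binding part of the type I complex, stood at 1.07 CPM in activated and 108 CPM in quiescent EOM cells, and at 1.03 and 88.3 CPM in TA cells. Its partner Stat2 was at 1.42 CPM in activated and 106 CPM in quiescent EOM cells, and at 1.51 and 62.6 CPM in TA cells. Irf7, which amplifies type I interferon production, had 0.1302 CPM in activated and 46.5 CPM in quiescent EOM cells, and 0.185 and 32.1 CPM in TA cells. All 5 factors were thus in place in quiescent cells of both muscles, EOM above TA.

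Most antiviral effectors were nearly lost or partly kept after culture, and Ifit2 was not lower. Among those nearly lost, Ifit1, which binds viral RNA and left 10 UMIs in activated EOM and 1 in activated TA, stood at 0.0814 CPM in activated and 82.5 CPM in quiescent EOM cells, and at 0.00976 and 21.3 CPM in TA cells. Its relative Ifit3 was at 0.179 CPM in activated and 31.5 CPM in quiescent EOM cells, and at 0.215 and 12.8 CPM in TA cells; 14.9% of its 50-base end words are shared with Ifit3b, so reads of the pair may be split. Isg15, a ubiquitin-like modifier, had 0.431 CPM in activated and 127 CPM in quiescent EOM cells, and 0.137 and 73.5 CPM in TA cells. Ifit1, Ifit3 and Isg15 were thus higher in quiescent EOM than in quiescent TA and under 1 CPM after culture. Oasl2, of the oligoadenylate synthetase family, stood at 0.2604 CPM in activated and 29.4 CPM in quiescent EOM cells, and at 0.0683 and 19.97 CPM in TA cells. Parp14, a mono-ADP-ribosyltransferase, was at 0.317 CPM in activated and 60.5 CPM in quiescent EOM cells, and at 0.185 and 38.2 CPM in TA cells. Xaf1, a partner of the apoptosis inhibitor XIAP, had 1.51 CPM in activated and 40.2 CPM in quiescent EOM cells, and 1.48 and 30.05 CPM in TA cells. Activated levels of these 3 were at most 1.51 CPM. Rtp4, a chaperone of receptors, stood at 2.07 CPM in activated and 40.7 CPM in quiescent EOM cells, and at 1.503 and 44.98 CPM in TA cells.

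Other effectors kept a measurable level in culture. Bst2, or tetherin, which holds budding virus at the cell surface, was at 13.1 CPM in activated and 37.8 CPM in quiescent EOM cells, and at 14.9 and 32.9 CPM in TA cells. Ifi27 had 20.6 CPM in activated and 366 CPM in quiescent EOM cells, and 15.9 and 284 CPM in TA cells. Ifi35 stood at 6.999 CPM in activated and 50.5 CPM in quiescent EOM cells, and at 5.22 and 44.8 CPM in TA cells. All 3 were lower in both activated libraries, with EOM above TA in quiescent cells. Isg20, an exonuclease that degrades viral RNA, was the member furthest below 1 in the ratio of quiescent EOM over quiescent TA. It had 4.45 CPM in activated and 7.44 CPM in quiescent EOM cells, and 10.2 and 47.7 CPM in TA cells, so TA was higher in both states.

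The interferon-induced GTPases were at or below 1.69 CPM after culture and were higher in EOM among quiescent cells. Gbp2, a guanylate-binding protein that coats microbial vacuoles, was at 0.228 CPM in activated and 185 CPM in quiescent EOM cells, and at 0.0683 and 85.04 CPM in TA cells. Gbp3 had 0.138 CPM in activated and 23.8 CPM in quiescent EOM cells, and 0.127 and 12.5 CPM in TA cells. Gbp7 stood at 0.513 CPM in activated and 35.7 CPM in quiescent EOM cells, and at 0.156 and 24.1 CPM in TA cells. The 4 guanylate-binding members, Gbp5 included, lie side by side on chromosome 3, as the Ifit members do on chromosome 19. Irgm1, a regulator of the immunity-related GTPases, was at 1.51 CPM in activated and 388 CPM in quiescent EOM cells, and at 1.22 and 239.9 CPM in TA cells. Igtp, of the same family, had 1.69 CPM in activated and 104 CPM in quiescent EOM cells, and 0.634 and 42.2 CPM in TA cells.

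Of the sensors of foreign RNA, Ddx58, which encodes RIG-I, stood at 0.789 CPM in activated and 21.9 CPM in quiescent EOM cells, and at 0.605 and 13.2 CPM in TA cells. Ifih1, which encodes MDA5, was at 0.659 CPM in activated and 22.9 CPM in quiescent EOM cells, and at 0.527 and 27.8 CPM in TA cells. Trim25, a ubiquitin ligase that acts with RIG-I, had 19.2 CPM in activated and 28.4 CPM in quiescent EOM cells, and 20.8 and 31.3 CPM in TA cells. Among members that reached 20 CPM, Trim25 had the activated CPM closest to the quiescent one in each muscle. The chemokine Cxcl10, which draws T cells, stood at 0.545 CPM in activated and 373 CPM in quiescent EOM cells, and at 0.654 and 55.9 CPM in TA cells. Cd274, the checkpoint ligand PD-L1, which left 3 UMIs in each activated library, was at 0.0244 CPM in activated and 22.2 CPM in quiescent EOM cells, and at 0.0293 and 8.38 CPM in TA cells. Both ligands were close to 0 after culture and higher in quiescent EOM than in quiescent TA. The 8 members that stayed under 20 CPM in every library were Ifit2, Ifit3b, Ifi47, Gbp5, Rsad2, Psmb9, Usp18 and Oas1a, and the highest of them was Rsad2 at 11.96 CPM in quiescent EOM.

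**Figure D1:**
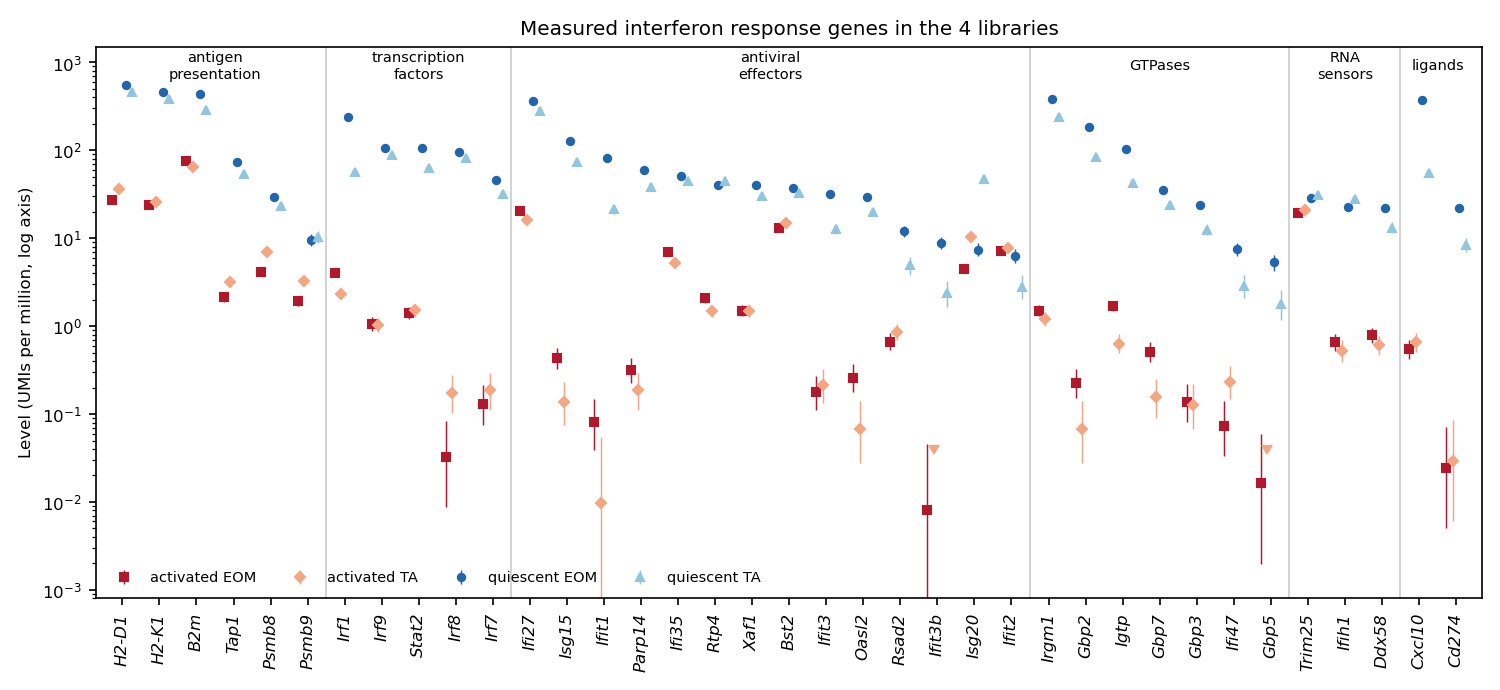
Level of the 37 measured members in the 4 libraries, in CPM on a log axis, with exact 95% counting intervals and roles marked above the genes; a downward triangle is the upper bound for a gene with no UMI. The quiescent points sit above the activated ones for nearly all members, with Ifit2 at or above its quiescent level after culture and Trim25 close to it in both muscles.

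Between the muscles, quiescent EOM cells had more RNA of most members than quiescent TA cells. Of the 37 members compared, 12 were at least 2-fold higher in EOM, against 4.88% of the 9219 genes that reached 5 CPM in at least 1 of both libraries. At least 2-fold lower was 1 member, Isg20, against 2.63% of genes. The median log2 ratio of the members, computed with 1 CPM added, was 0.60, beside 0.10 over all genes, and 32 of 37 had a ratio above 1. With 1 library a side this is a difference between libraries; whether it belongs to the muscles cannot be told apart from anything else that differed between the preparations.

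The members furthest apart were Cxcl10, 6.67-fold higher in quiescent EOM (6.21 to 7.17), Irf1, 4.19-fold higher (3.89 to 4.51), and Ifit1, 3.86-fold higher (3.42 to 4.37). Ifit3b followed at 3.79-fold (2.62 to 5.61), with 8.93 CPM in EOM and 2.36 CPM in TA. The other 8 members past 2-fold were Gbp5, Cd274, Ifi47, Ifit3, Igtp, Rsad2, Ifit2 and Gbp2, with ratios of 2.18 to 3.01. Gbp2 stood just inside the 2-fold limit at 2.18 (2.04 to 2.32), and Gbp3 just outside it at 1.899 (1.596 to 2.27). At the low end, Isg20 had a ratio of 0.156 (0.129 to 0.188), Ifih1 0.823 (0.716 to 0.945) and Rtp4 0.906 (0.815 to 1.01). Trim25 and Psmb9 also had ratios below 1, with intervals that include 1.

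By role, both ligands passed 2-fold (median log2 ratio 2.01). All 7 GTPases had a ratio above 1, and 4 of them, Gbp2, Gbp5, Ifi47 and Igtp, passed 2-fold (median 1.11). Of 14 measured antiviral effectors 5 were at least 2-fold higher, all of them Ifit genes or Rsad2, an enzyme that makes a chain-terminating nucleotide, and 1 was lower (median 0.59). Of the 5 transcription factors only Irf1 passed (median 0.52). None of the 6 antigen presentation genes and none of the 3 sensors did, with medians of 0.31 and -0.14. Among antigen presentation genes the ratios ran from 0.935 for Psmb9 to 1.52 (1.46 to 1.58) for B2m.

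**Figure D2:**
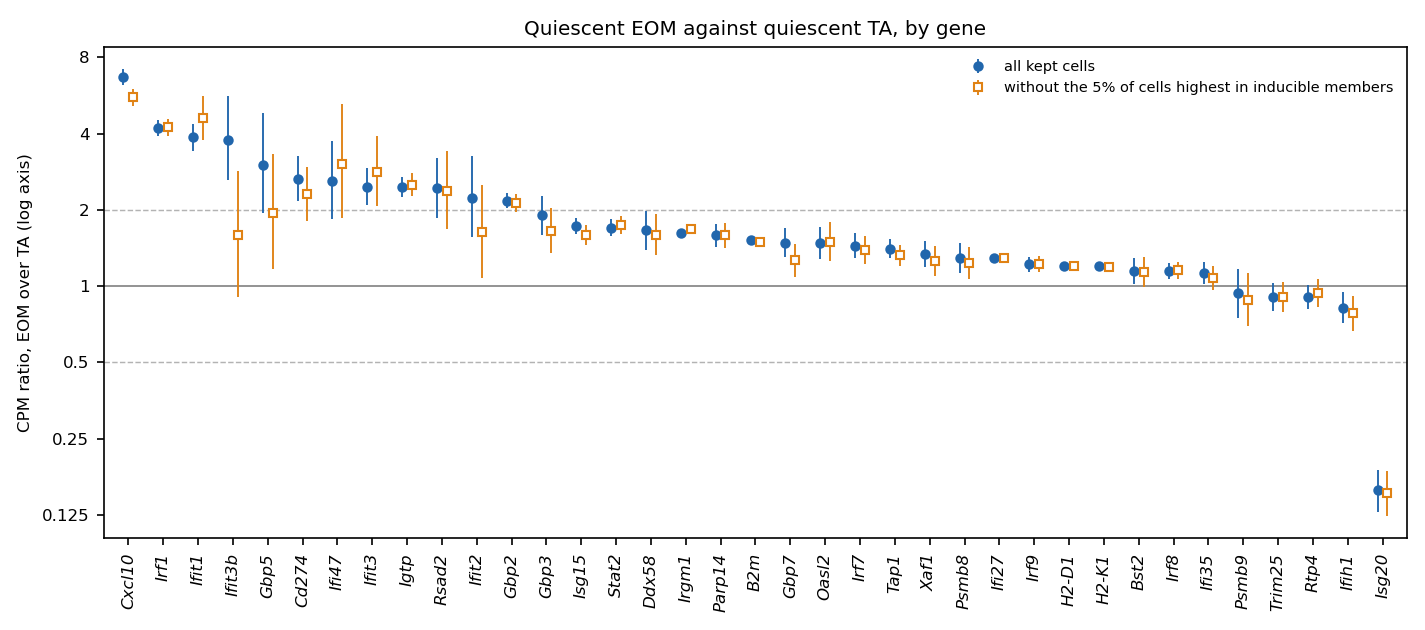
CPM ratio of quiescent EOM over quiescent TA for the 37 measured members on a log axis, with exact 95% counting intervals; circles are all kept cells, open squares the cells left after the 5% with most inducible members were removed from each library, and dashed lines mark 2-fold. Most points lie above 1, Isg20 lies far below, and Ifit3b, Gbp5 and Ifit2 are the genes that cross below 2 when those cells are left out.

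The same 5 members had a ratio below 1 when the libraries were scaled another way. Factors from edgeR's TMM lowered every log2 ratio by 0.13, after which the members' median was 0.44 and that of all genes -0.03. Then 10 members were at least 2-fold higher, as Gbp2 stood at 1.98-fold and Gbp5 fell under the 5 CPM minimum. Among all genes past 2-fold, the share higher in EOM was 65.0% by CPM and 50.5% with TMM. The mitochondrial share, a sign of RNA quality, was also higher in quiescent TA. Within the cells of 5 to 7.5% mitochondrial UMIs the inducible members summed to 1964 CPM in EOM and 1313 CPM in TA, and within 7.5 to 10% to 1957 CPM in EOM and 1275 CPM in TA. Below 5%, where TA had 44 cells and EOM 263, the sums were 1899 CPM in EOM and 1806 CPM in TA. In that small group the members' median was 0.11, with 5 higher and 2 lower, and Ifit2, Ifit3, Rsad2 and Cd274 had ratios below 1. With 44 TA cells, few UMIs decide the ratios of low members there. The share of all genes past 2-fold was not computed for TMM or for this group, so these counts lack that comparison.

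Activated EOM and activated TA cells differed little in the members that could still be compared. Only 10 members had 5 CPM or more in either activated library. None was at least 2-fold higher in EOM, against 2.99% of 8890 genes, and 1 was at least 2-fold lower, against 1.36% of genes. The members' median log2 ratio was -0.11, beside -0.01 over all genes. The member past 2-fold was Isg20, with a ratio of 0.435 (0.392 to 0.483). Psmb8 followed at 0.593 (0.528 to 0.666) and H2-D1 at 0.744 (0.7097 to 0.7798), while Ifi35 (1.34, 1.202 to 1.496), Ifi27 (1.29, 1.21 to 1.37) and B2m (1.17, 1.13 to 1.21) were the 3 members higher in EOM. Cxcl10, which stood furthest apart in quiescent cells, had 67 UMIs in each activated library, and 33 of the 67 in activated TA came from a single cell.

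After culture the members were lower in both muscles. In EOM, 34 of 37 members were at least 2-fold lower in activated than in quiescent cells and 0 at least 2-fold higher; of all 10064 genes, 25.3% were lower and 25.3% higher. In TA, 31 of 33 members were at least 2-fold lower and 1 at least 2-fold higher; of 9853 genes, 24.7% were lower and 29.2% higher. The median ratio of the members was 0.0163 in EOM and 0.0242 in TA, beside medians of 1.04 and 1.11 over all genes. On the log2 scale with 1 CPM added, which understates changes of low genes, the medians were -4.31 in EOM and -4.07 in TA. The 2 activation comparisons have no library in common.

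The steepest ratios in EOM belonged to Irf8, at 0.000344 (9.35e-05 to 0.000881), Ifit3b at 0.000912 (2.29e-05 to 0.00515, from 1 UMI in activated cells) and Ifit1 at 0.000987 (0.000472 to 0.00182). In TA they belonged to Ifit1 at 0.000457 (1.15e-05 to 0.00257, from 1 UMI), Gbp2 at 0.000803 (0.000322 to 0.00166) and Isg15 at 0.00186 (0.00101 to 0.00313). At the other end in EOM stood Ifit2 with a ratio of 1.13 (0.924 to 1.39), Trim25 with 0.677 (0.614 to 0.747) and Isg20 with 0.598 (0.493 to 0.7302). In TA, Ifit2 was 2.74-fold higher after culture (2.01 to 3.81). Its ratio was 0.565 in cells with at most 5% mitochondrial UMIs. That limit left 44 quiescent TA cells, so a few Ifit2 UMIs decide the value, and no interval was computed for it. Also in TA, Trim25 had a ratio of 0.665 (0.602 to 0.735) and Bst2 one of 0.454 (0.4105 to 0.504). Ifit2 thus parted from its neighbours on chromosome 19, Ifit1 and Ifit3: it had 7.097 CPM in activated and 6.295 CPM in quiescent EOM cells, and 7.71 and 2.82 CPM in TA cells. By role, the median log2 activation ratio was lowest in EOM for the ligands (-6.21) and the transcription factors (-5.58), and highest for antigen presentation (-3.41). In TA it was -4.15 for the ligands, -4.81 for the transcription factors and -2.88 for antigen presentation.

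CPM sets each gene against the whole RNA of the cell, and activated cells yielded 4.54 times as many UMIs per cell as quiescent cells in both muscles. On the scale of mean UMIs per cell the members' median log2 ratios were -2.13 in EOM and -1.89 in TA, with 29 and 25 members still at least 2-fold lower and 3 at least 2-fold higher in each muscle. Of all genes on that scale, 7.24% were lower and 77.2% higher in EOM, and 7.16% lower and 77.8% higher in TA. Ratios below 1 by CPM turned above 1 in both muscles for Trim25, at 3.07 in EOM and 3.02 in TA, and for Bst2, at 1.58 in EOM and 2.06 in TA. Isg20 turned in EOM, at 2.72, and Psmb8, Psmb9 and B2m in TA, at 1.36, 1.43 and 1.02. Ifit2 had ratios of 5.12 in EOM and 12.4 in TA on that scale. TMM factors raised all activation ratios by 0.40 in EOM and 0.28 in TA on the log2 scale, and the share of higher genes among all those past 2-fold was 65.3% with TMM and 50.05% by CPM in EOM, and 63.8% with TMM and 54.2% by CPM in TA.

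In quiescent cells the members were unevenly spread. For this, each cell was thinned to 2000 UMIs, which left 3510 EOM and 2843 TA cells and dropped 82 and 56 shallower ones; 31 activated EOM and 47 activated TA cells were dropped likewise. At least 3 inducible members were detected in 40.7% of quiescent EOM cells (39.1 to 42.4, Clopper-Pearson) and 29.4% of quiescent TA cells (27.7 to 31.1); without thinning the shares were 71.6% in EOM and 65.1% in TA. At least 5 were detected in 14.9% of EOM and 7.25% of TA cells, and at least 10 in 54 EOM and 14 TA cells. In activated cells at least 3 were found in 4 of 5535 EOM and 2 of 4237 TA cells. No cell type that should lack these genes was available, so the share owed to free RNA in the droplets was not measured.

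The sum of inducible members had a median of 3 UMIs per EOM cell and 2 per TA cell, and reached 72 and 79 UMIs in the highest cell. The 5% of cells with the highest sum held 25.0% of all inducible UMIs in EOM (24.3 to 25.7) and 22.3% in TA (21.4 to 23.3). These shares are set by the ranking itself and are given as a description. Clustering each library on its own placed 194 EOM cells and 102 TA cells in a group with many of these RNAs. Its 10 genes most raised over the remaining cells included Ifi47, Ifit1, Ifit3, Ifit3b and Oasl2 in both libraries.

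**Figure D3:**
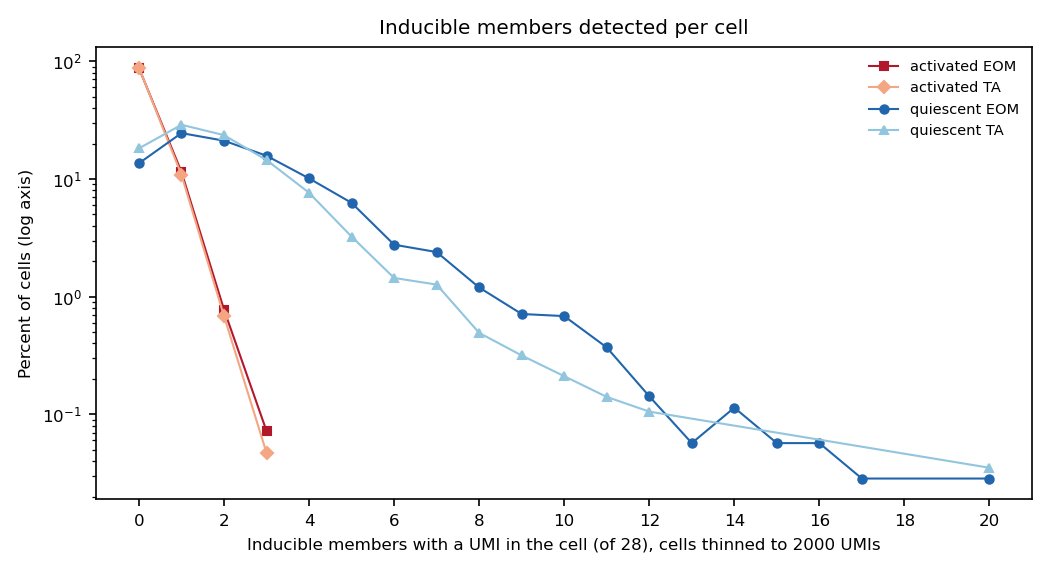
Percent of cells (log axis) by the number of the 28 inducible members with a UMI, in cells thinned to 2000 UMIs; squares and diamonds are activated EOM and TA, circles and triangles quiescent EOM and TA. Activated cells reach at most 3 members, quiescent cells up to 20, and from 3 to 12 members the quiescent EOM percentages lie above those of quiescent TA.

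To ask whether a gene follows the others, cells were ranked by the sum of the other inducible members, and the share of the gene's UMIs in the top 5% was taken; for the median gene this was 4.86% in EOM and 4.76% in TA. Ifit3 had the highest share, with 69.3% (62.9 to 75.1) of its UMIs in the top cells of EOM and 77.6% (66.6 to 86.4) of TA. The TA share of Ifit3 rests on 76 thinned UMIs, with up to 20 of them in a single cell. Ifit3b, with 68 thinned UMIs in EOM, had 67.6% (55.2 to 78.5) there, and in TA it stayed under 20 thinned UMIs. Ifit1 had 53.1% in EOM and 55.1% in TA. Oasl2 had 32.3% in EOM and 32.5% in TA, and Isg15 27.1% in EOM and 25.4% in TA. Over 50% of Ifit1 and Ifit3 UMIs thus lay in the top cells of both libraries, while most Oasl2 and Isg15 UMIs lay outside them. UMIs of a gene come several to a cell, so intervals of these shares are too narrow, and each is from a single library. Among the GTPases, Gbp2 had 29.7% (27.2 to 32.3) in EOM and 18.6% (15.2 to 22.5) in TA, and Gbp7 29.1% (23.7 to 35.04) in EOM and 15.5% (10.1 to 22.4) in TA. Cxcl10, which is not part of the ranking, had 30.04% (28.2 to 31.9) in EOM and 13.96% (10.3 to 18.3) in TA. It was detected in 11.7% of EOM and 3.45% of TA cells, with up to 65 thinned UMIs in an EOM cell and 27 in a TA cell.

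At the other end stood genes found broadly. H2-D1 had 8.76% of its UMIs in the top cells of EOM and 8.96% of TA, Ifi27 8.295% and 7.92%, and Stat2 7.95% and 8.31%. All 37 members in EOM, and all 33 in TA, with at least 20 thinned UMIs were above the median gene. Irf1 was the lowest of them in both libraries, with 5.18% (4.19 to 6.31) in EOM and 5.44% (3.40 to 8.20) in TA, intervals that include the median gene. When cells were ranked instead by 24 immediate early genes (Fos, Jun, Egr1 and others, which respond within minutes to stress or growth signals), Irf1 had 15.3% (13.7 to 17.1) of its UMIs in the top 5% of EOM cells and 21.8% (17.7 to 26.2) in TA, against 4.82% and 4.88% for the median gene. No other member had an interval above the median gene there, and 23 of 37 in EOM and 14 of 33 in TA had intervals below it. Gbp2, for example, had 0.562% in EOM and 2.16% in TA. With cells ranked by genes of the NF-kappaB response, 14 of 37 members in EOM and 15 of 33 in TA had intervals above the median gene, which was at 4.76% and 4.67%. The share of all genes with intervals above or below the median was not computed for either ranking. These counts therefore do not set the members apart from other genes. In EOM the highest were Ifit3b at 26.5% (16.5 to 38.6), Cxcl10 at 12.2% and Oasl2 at 10.9%. The Ifit3b share rests on 18 of 68 thinned UMIs, with up to 10 in a single EOM cell, and Ifit3 was at 8.66%. In TA the highest were Gbp7 at 11.5%, Ifit1 at 11.03% and Oasl2 at 10.0%, with Cxcl10 at 9.42%.

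**Figure D4:**
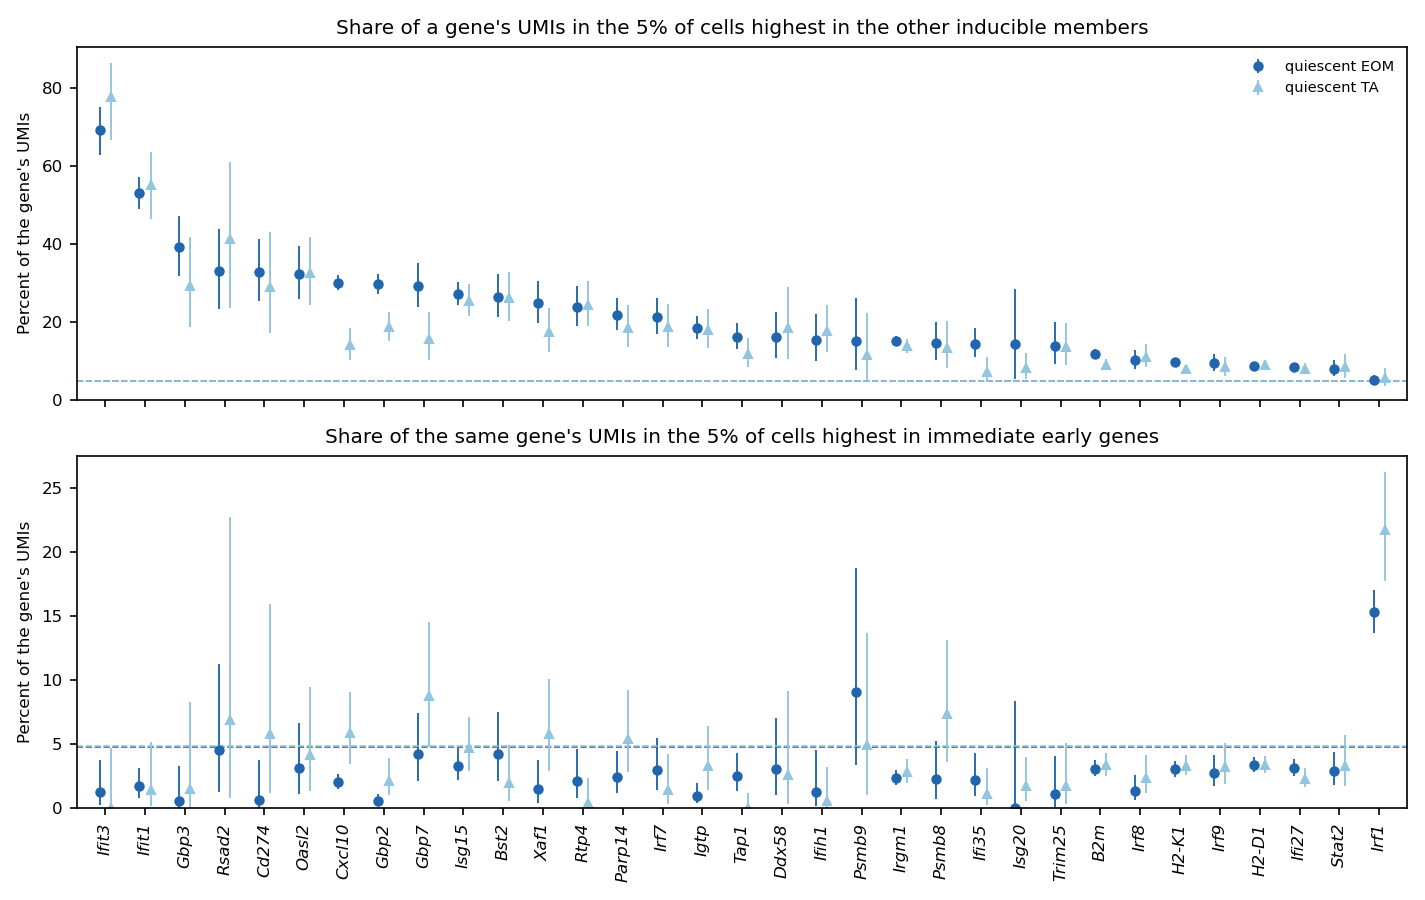
Share of each member's UMIs (percent, with exact 95% counting intervals) in the 5% of cells highest in the other inducible members (upper panel) and in the 5% highest in immediate early genes (lower panel), for the 33 members with at least 20 thinned UMIs in both quiescent libraries; dashed lines are the median gene. Ifit3 and Ifit1 have the highest shares in the upper panel and Irf1 is last, while in the lower panel Irf1 is the member whose interval lies above the line in both libraries, and many others lie below it.

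Members left out of the ranking were also higher in its top cells. Cxcl10 was at 2045 CPM in the top 5% and 287 CPM in the rest of EOM, and at 145 and 51.5 CPM in TA. Cd274 was at 160.3 CPM in the top cells and 15.1 CPM in the rest of EOM, and at 45.9 and 6.56 CPM in TA. B2m was at 979 CPM in the top cells and 407 CPM in the rest of EOM, and at 562 and 272 CPM in TA. Tap1, Psmb8, Irf8 and Trim25 were likewise more than 2-fold higher in the top cells of both libraries, while Irf1 was at 252 and 239 CPM in EOM and 72.4 and 56.4 CPM in TA. Related genes that are no members were higher there too: Iigp1, an immunity-related GTPase, was at 577 and 85.8 CPM in EOM, and Ifitm3, which blocks viral entry, at 4736 and 1729 CPM in EOM. The part of cell state or of other signals in these differences was not tested. Fos was lower in the top cells, at 996 CPM, against 2426 CPM in the rest of EOM, and at 748 against 1705 CPM in TA. Depth was similar in top cells and the rest, with medians of 4598 and 4699.5 UMIs in EOM and 4702 and 5080 UMIs in TA, as was the mitochondrial share (6.98% and 6.92% in EOM, 7.66% and 7.93% in TA). Cells with at least 3 markers of a blood cell type, and more of these than of muscle markers, had been removed before. Of the top cells, 5 of 176 in EOM and 4 of 142 in TA had a UMI of at least 1 leukocyte, macrophage, T or NK cell marker. Class II MHC UMIs were found in 19 EOM and 15 TA cells, of which 2 in each library were top cells. Pax7 was found in 56.2% of them in EOM and 76.8% in TA, against 62.4% and 72.9% of the rest.

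Ifit-type and GTPase-type members were also counted in the same cells. The Ifit-type group held 12 genes: Ifit1, Ifit2, Ifit3, Ifit3b, Isg15, Usp18, Oas1a, Oasl2, Rsad2, Irf7, Rtp4 and Xaf1. At least 3 different genes of this group were detected in 166 EOM cells (4.73%) and 57 TA cells (2.00%). At least 2 different genes of the 7 GTPases were detected in 722 EOM cells (20.6%) and 258 TA cells (9.07%). Both held in 117 EOM and 32 TA cells. That is 70.5% of the Ifit-type cells in EOM, where 18.1% of the remaining cells were GTPase-type, and 56.1% in TA, where 8.11% of the remaining cells were. It is 16.2% and 12.4% of the GTPase-type cells, a share that the smaller number of Ifit-type cells limits. With the top 5% of cells left out of each library, Ifit2, Ifit3b and Gbp5 had ratios of quiescent EOM over TA below 2, at 1.63, 1.59 (0.907 to 2.84) and 1.94, and the others of the 12 stayed above. Ifit1 was then at 37.5 CPM in EOM and 8.18 CPM in TA and Cxcl10 at 286 CPM in EOM and 51.5 CPM in TA.

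Within the activated libraries, differentiating cells, taken as those in which Myog, Mymk or Mymx was detected among 2000 thinned UMIs, were set against the remaining cells by the CPM of all their UMIs. There were 2934 such cells of 5535 in EOM and 2783 of 4237 in TA. Trim25 was higher in differentiating cells, with 23.7 CPM, against 14.5 CPM in the others of EOM (1.63-fold, 1.496 to 1.77), and 1.53-fold in TA. H2-D1 was lower, at 21.2 against 32.9 CPM in EOM (ratio 0.645, 0.601 to 0.692) and 31.0 against 45.5 CPM in TA (0.682, 0.639 to 0.728). Irf1 was at 1.85 against 6.29 CPM in EOM (0.295, 0.237 to 0.364) and 1.55 against 3.72 CPM in TA (0.418, 0.320 to 0.544). Ifi35 had ratios of 0.612 in EOM and 0.7496 in TA, Bst2 of 1.39 and 1.15, and B2m of 0.967 and 0.959. Igtp, although under 5 CPM, was at 3.02 CPM in differentiating cells and 0.315 CPM in the others of EOM, and at 0.930 and 0.109 CPM in TA.

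The rest of the pathway was also measured, from lists of other genes. No UMI of Ifnb1, Ifna2, Ifna4, Ifne, Ifnk, Ifnl2 or Ifnl3 was found in any library, and Ifng, the gene of interferon gamma, had 2 UMIs in activated TA and 1 in quiescent TA. The receptor genes were present: Ifnar1 had 10.9 CPM in activated and 21.3 CPM in quiescent EOM cells, and 10.04 and 15.8 CPM in TA cells. Ifngr1 had 26.2 CPM in activated and 63.6 CPM in quiescent EOM cells, and 19.4 and 45.9 CPM in TA cells. Of 20 measured signalling genes, 1 was at least 2-fold higher in quiescent EOM than in quiescent TA, Il10rb at 2.10-fold (1.70 to 2.60). Among all genes 4.88% were. At least 2-fold lower were 0, against 2.63% of all genes, and the median log2 ratio was 0.33. After culture, 13 of 20 were at least 2-fold lower in each muscle and 0 higher. Of all genes, 25.3% were lower and 25.3% higher in EOM, and 24.7% lower and 29.2% higher in TA.

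Among all genes, 4.88% were at least 2-fold higher in quiescent EOM than in quiescent TA and 2.63% lower. Of 36 other interferon-stimulated genes, 5 were higher by that limit and 0 lower, with a median log2 ratio of 0.26. They were Cxcl9, a chemokine that shares its receptor with Cxcl10, at 7.84 CPM in EOM and 0.786 CPM in TA, Gbp6, Cmpk2, Irgm2 and Trim21. After culture, 32 of 36 were at least 2-fold lower in EOM and 25 of 34 in TA, against 25.3% and 24.7% of all genes. Genes of the NF-kappaB response were higher beside the members: 7 of 18 passed 2-fold upward in quiescent EOM and 1 downward, with a median of 0.64, among them Nfkbia (857 CPM in EOM and 387 CPM in TA) and Ccl2 (354 CPM in EOM and 118 CPM in TA). Of 24 immediate early genes, 1 passed 2-fold in favour of quiescent EOM and 0 in favour of quiescent TA (median 0.41). Beside these counts stand the 4.88% and 2.63% of all genes. All 24 were at least 2-fold lower after culture in both muscles, against 25.3% of all genes in EOM and 24.7% in TA. The part of these signals, or of cell isolation, in the members' levels was not tested.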

How the data were processed

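The authors deposited UMI counts, 1 value per gene and barcode, and the submitters' processing notes name Cell Ranger 3.0.2 and mm10. Which annotation release was used, and how many animals, is not given in the sources used here. Of 31055 gene IDs, 30934 matched GENCODE vM21, including all 39 members. Barcodes with under 500 genes or over 10% mitochondrial UMIs were removed. Scrublet's automatic threshold (scanpy 1.11.5) called 1 barcode in quiescent EOM and 0 in quiescent TA, so doublets were removed by score rank, at 0.8% per 1000 barcodes. A cluster of 16 endothelial-like cells in quiescent TA was removed. Also removed were 4 cells in quiescent EOM and 3 in quiescent TA by a rule added after the data were seen. These cells had at least 3 markers of a non-muscle type and more of them than of muscle markers. Kept counts were summed per library and scaled to CPM, which took 15274737 to 122868688 UMIs; 3 counts were worth 0.0244 to 0.196 CPM. A gene was compared where either library reached 5 CPM and called at a 2-fold ratio. Log2 ratios used 1 CPM added. Ratio intervals are exact Poisson and share intervals Clopper-Pearson at 95%; no test was run, since each group is 1 library. Alternative scalings used edgeR 4.0.16 (TMM) and DESeq2 1.42.0 size factors, under R 4.3.3; the rest ran under Python 3.11.15. The scripts were tested on simulated data. The members, gene lists and motifs were chosen with earlier results of these data known. Named were all members reaching 20 CPM, and per comparison the 3 largest and 3 smallest ratios; other genes outside the members were chosen after their values were seen.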

Additional observations from a re-analysis of the deposited data

Results flagged for a closer look

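In 4 of the 10 members compared in both states, the ratio of EOM over TA was below 1 in activated and above 1 in quiescent cells with neither counting interval reaching 1; each ratio compares 1 library with 1, so the difference between the ratios was not tested. Bst2 had a ratio of 0.879 in activated cells and 1.15 (1.02 to 1.29) in quiescent cells. With TMM factors, which lower quiescent log2 ratios by 0.13, the lower bound for Bst2 falls below 1, so its place here depends on the scaling. Psmb8 had a ratio of 0.593 in activated cells and 1.29 in quiescent cells. H2-K1 stood at 0.928 in activated and 1.20 in quiescent cells, and H2-D1 at 0.744 in activated and 1.20 in quiescent cells. Of the 4 genes, 3 belong to class I antigen presentation. Ifit2 also had opposite ratios, 0.921 in activated cells, with an interval of 0.835 to 1.01, and 2.24 in quiescent cells. Below 5 CPM in both activated libraries, Tap1 had a ratio of 0.6795 in activated and 1.404 in quiescent cells, and Ifi47 of 0.313 in activated and 2.603 in quiescent cells.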

How the results depend on the processing

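With 1 library per group, no difference could be set against replicate spread, and depth limits members under about 1 CPM in activated cells, where a few UMIs decide a ratio. No paired analysis was possible because each group has 1 library and no comparison was tested. Apart from the values given here, 158 summary values and 1055 member ratios kept their direction and size class; 19 member ratios kept their direction but not the 2-fold limit. Activated over quiescent cells gave median log2 ratios of -4.06 in EOM and -3.81 in TA with TMM, and -4.17 in EOM with DESeq2 factors. They were -5.54 in EOM and -5.28 in TA with 0.1 CPM added, and -2.80 and -2.57 with 5 CPM added. A 1 CPM minimum gave -3.67 in TA, and 1 member higher in activated EOM over TA. A 20 CPM minimum gave -4.59 and -4.22, 0 higher in TA, 7 higher in quiescent EOM over TA, and 0 lower in activated EOM over TA. No minimum gave -3.67 in TA; activated EOM over TA then had 6 higher and 3 lower, with a median of 0.014. At most 5% mitochondrial UMIs left 44 quiescent TA cells. This setting gave -3.97 in EOM and -4.33 in TA, 0 higher in TA and 1 higher in activated EOM over TA. Quiescent EOM over TA then had a median of 0.11, with 5 higher and 2 lower. Ifit2 was at 0.566, Ifit3 at 0.771, Rsad2 at 0.360 and Cd274 at 0.694 in that comparison. Activated over quiescent TA then had Ifit2 at 0.565. Without the top 5% of cells the medians were -4.18 and -3.82. Mean UMIs per cell, chosen after seeing the data like keeping non-muscle cells, gave -2.13 with 3 higher in EOM and -1.89 with 3 higher in TA, Bst2 at 1.58, Trim25 at 3.07 and Isg20 at 2.72 in EOM, and in TA Trim25 at 3.02, Bst2 at 2.06, Psmb8 at 1.36, Psmb9 at 1.43 and B2m at 1.02. The share of quiescent cells with at least 3 inducible members was 18.7% in EOM and 12.2% in TA thinned to 1000 UMIs, 56.7% and 44.1% at 3000, 71.6% and 65.1% unthinned, and 27.3% in TA with up to 20% mitochondrial UMIs. The share of UMIs in the top 5% of cells was 25.9% in EOM and 24.6% in TA at 1000 UMIs, 24.2% in EOM with up to 20% mitochondrial UMIs, and 23.4% in TA with another seed. Among these settings, the share of all genes past 2-fold was computed only for mean UMIs per cell. Where no construction of the setting shows it, the cause was not tested.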

Other observations

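A few relatives of the members were most abundant in cultured TA cells. Gbp4, a guanylate-binding protein gene, had 2555 UMIs (24.9 CPM) in activated and 0 in quiescent TA cells, and 437 UMIs (3.56 CPM) and 3 UMIs in EOM cells. Gbp8 had 1001 UMIs in activated and 0 in quiescent TA cells, and 169 UMIs and 1 UMI in EOM cells. Gbp9 had 18.2 CPM in activated and 0.786 CPM in quiescent TA cells, and 2.95 and 1.602 CPM in EOM cells. Activated EOM over activated TA gave ratios of 0.143 (0.129 to 0.158) for Gbp4, 0.141 (0.119 to 0.166) for Gbp8 and 0.162 (0.145 to 0.182) for Gbp9. The member genes Gbp2, Gbp3, Gbp5 and Gbp7 had the opposite order between states. Psmb10, an immunoproteasome subunit gene, had 35.5 CPM in activated and 16.6 CPM in quiescent TA cells, and 25.01 and 18.9 CPM in EOM cells, while the members Psmb8 and Psmb9 were lower after culture by CPM. These genes were singled out after their values were seen.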
